A study of Mus musculus with 18 samples.

Results

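MiR-124 is a microRNA (miRNA) of neurons, and its 2 mature arms, mmu-miR-124-3p and mmu-miR-124-5p (miR-124-3p and miR-124-5p below), were followed here through all 18 small RNA libraries of the study. They are 2 of the 1431 mature mouse miRNAs in the count tables and were selected by name. The libraries came from normal male C57BL/6 mice of 8 to 12 weeks that carried no engineered allele and received no treatment. They fall into 6 groups of 3 libraries each, which are left eye, right eye, left lung, right lung, left testicle and right testicle. The labels give whole organs. They state neither whether the 3 libraries of a group came from separate mice, nor whether left and right organs came from the same mice, so the p-values measure the spread between libraries, which may in part be technical.

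A miRNA is cut from a hairpin transcript, and 1 arm of the hairpin is usually loaded into an Argonaute protein, where it pairs with messenger RNAs through its seed and lowers their translation and stability. MiR-124 is among the most abundant miRNAs of the mammalian brain and retina. Its 3p arm is the one known to act as the guide, repressing many transcripts of non-neuronal cells, among them that of Ptbp1, a splicing repressor that neurons switch off. The 5p arm is the passenger side of the same hairpin.

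The mouse genome holds 3 copies of the hairpin, all on the plus strand of GRCm38.p6. Mir124a-1 lies at chr14:64590657-64590741, inside an exon of the long non-coding RNA Mir124a-1hg, which is also called Rncr3. Mir124a-2 lies at chr3:17795662-17795770 within the long non-coding RNA gene Mir124-2hg, and its last 27 bases overlap an annotated exon of that gene. Mir124a-3 lies at chr2:180894040-180894107, and its last 3 bases overlap an exon of the long non-coding RNA Gm27032. The tables count mature arms and not hairpins, so the share of each locus could not be separated. A further listed miRNA, miR-124b-3p, was singled out by its name. RefSeq places its hairpin, Gm51272, at chr3:17795685-17795741, within the interval of Mir124a-2. How reads that fit both were assigned is not given in the sources used here, so its counts are uncertain.

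Library totals ran from 2451484 to 2680204 counts in eyes, from 2538402 to 2790471 in lungs and from 952608 to 1893132 in testicles. Levels below are CPM, counts scaled to a common library size, after TMM normalization, which corrects library totals for differences in composition. The marker miRNAs of each organ stood where the labels place them. The photoreceptor miRNAs miR-183-5p, miR-182-5p and miR-96-5p summed to between 92052.2 and 126112 CPM in eyes, with at most 4711.54 in lungs and 2601.66 in testicles. Lung endothelial and epithelial markers were highest in lungs, and the testicle list, led by miR-202-5p, summed to at least 55775.3 CPM in testicles and to at most 30.2 in eyes and 114 in lungs. The right lung 1 stood apart from the other lungs. It had 696 miRNAs with at least 1 count, against 782 to 852 in the others, and miR-33-5p at 0.118 and miR-19b-3p at 0.203 of the lung mean, but miR-204-5p at 3.23.

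MiR-124-3p was abundant in the eye, present at a low level in the testicle and at trace level in the lung. Its counts were 71942, 122573 and 99377 in the left eyes and 138058, 82780 and 126775 in the right eyes. The left lungs had 21, 457 and 128 counts, and the right lungs had 230, 64 and 20. The left testicles had 1935, 2182 and 1671 counts, and the right testicles had 1808, 2521 and 1569. The order of the organs was therefore the same in every library, with each eye above each testicle and each testicle above each lung. In bulk organs fewer cells that hold a miRNA and less of it per cell cannot be told apart.

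On the TMM scale miR-124-3p averaged 41209 ± 12508 CPM in eyes, 50.5 ± 53.2 CPM in lungs and 1578 ± 300.1 CPM in testicles (SD, n = 6 libraries per organ). It took between 2.68% and 5.49% of all counts in an eye library, between 0.000731% and 0.0168% in a lung library and between 0.0927% and 0.203% in a testicle library. In the right eyes 1 and 3 and the left eye 2 it was the most abundant miRNA of the library. It ranked 14th in the left eye 1, between 165 and 376 in lungs, and between 71 and 95 in testicles. The lowest eye library was 185-fold above the highest lung library and 12.4-fold above the highest testicle library.

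On average miR-124-5p followed the same order at a far lower level. Its counts were 232, 343 and 410 in the left eyes and 296, 232 and 241 in the right eyes. In lungs it had 2 counts in the left lung 2 and 0 in the other 5 libraries. The left testicles had 1, 0 and 3 counts, and the right testicles had 1, 4 and 4. The 6 eyes averaged 110 ± 20.4 CPM, the 6 lungs 0.102 ± 0.250 CPM and the 6 testicles 1.74 ± 1.25 CPM (SD). The eyes stood clear of both other organs, whereas the lung range, 0 to 0.611 CPM, lay within the testicle range, 0 to 3.04 CPM. A lung library with 0 counts allows up to 3, which is between 1.08 and 1.18 CPM of its total.

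**Figure D1:**
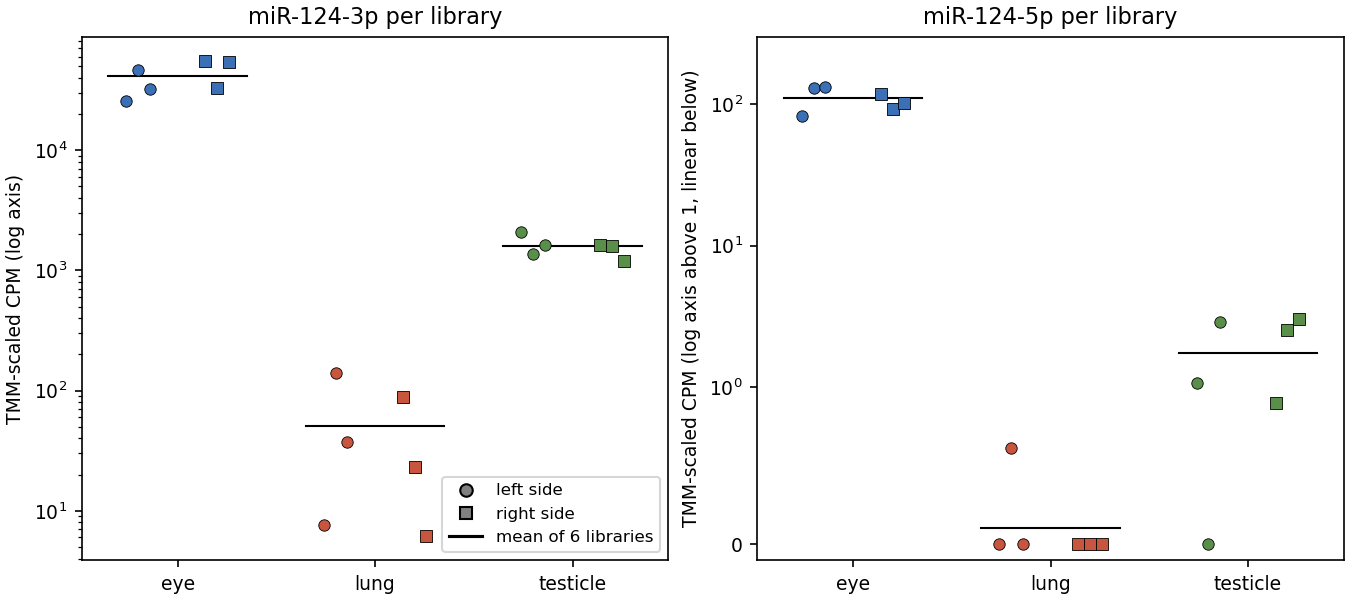
TMM-scaled CPM of miR-124-3p and miR-124-5p in each library, by organ on the x axis, with circles for left and squares for right organs and a line at the mean of the 6 libraries. The y axis is logarithmic on the left, and on the right logarithmic above 1 and linear below; the eyes stand above all lungs and testicles for both arms, and 5 of the 6 lungs have 0 counts of miR-124-5p.

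Both arms passed the test in each of the 3 comparisons between organs, which used edgeR's quasi-likelihood test with Benjamini-Hochberg adjustment over 642 miRNAs and a threshold of 0.05. In eyes against lungs miR-124-3p was higher in 6 of 6 eyes, with a log2 fold change of 9.69 (95% interval 8.00 to 11.38, SE 0.80, edgeR adjusted p = 1.22e-08). In eyes against testicles it was higher by 4.69 (SE 0.64, edgeR adjusted p = 3.94e-06, interval 3.34 to 6.05). In lungs against testicles its log2 fold change was -5.00, with an SE of 0.65 (edgeR adjusted p = 2.7e-06). Most miRNAs differ between these organs: 59.8% of those tested were called in eyes against lungs, 79.3% in eyes against testicles and 76.5% in lungs against testicles. A call was thus common among all miRNAs. By size of change miR-124-3p was 9th and miR-124-5p 7th of 642 in eyes against lungs. In eyes against testicles they were 149th and 105th. The ranks of miR-124-5p rest on 2 counts over all lungs and 13 over all testicles. The 3 comparisons share libraries, so their values are not independent of each other.

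For miR-124-5p the fitted log2 fold change was 9.84 in eyes against lungs (SE 0.59, edgeR adjusted p = 1.49e-09), 6.05 in eyes against testicles (SE 0.47, edgeR adjusted p = 1.78e-08) and -3.79 in lungs against testicles (SE 0.86, edgeR adjusted p = 0.00103). The lung side rests on 2 counts in all, so the ratio of summed counts per total carries the wider error: 919-fold in eyes over lungs, with a 95% counting interval of 254 to 7592. In eyes over testicles that ratio was 78.3 (45.6 to 147), with 1754 counts in eyes and 13 in testicles. With at most 2 counts in a lung and 4 in a testicle, this arm passed the filter on low counts only through the eyes. Its calls in eyes against the other organs are therefore no separate support. Its call in lungs against testicles compares 2 counts with 13. Leaving out the left lung 2, which held both lung counts, moved the fitted values to 10.83 in eyes against lungs and -4.99 in lungs against testicles. Leaving out the left testicle 3 moved them to 6.75 in eyes against testicles and -3.12 in lungs against testicles (edgeR adjusted p = 0.0175), and the calls held.

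MiR-124b-3p had 70, 142 and 152 counts in the left eyes and 123, 89 and 86 in the right eyes. No lung had more than 2 counts of it and no testicle more than 3, so it too passed the filter only through the eyes. It was called in the same directions, with log2 fold changes of 7.01 in eyes against lungs (edgeR adjusted p = 5.8e-10) and 4.83 in eyes against testicles (edgeR adjusted p = 1.33e-08).

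The scaling method changed the overall split of calls, and it shifted the values of miR-124 too, but not its calls. Of the miRNAs called in eyes against lungs, 59.1% were higher in eyes, but 42.8% when the left testicle 1 was the library that TMM scales to. That setting shifted the median of all tested miRNAs by -0.51 on the log2 scale, and miR-124-3p stood at 9.09 there. In lungs against testicles the share called higher in lungs was 35.8%, and 46.6% with the left lung 1 as that library, with a shift of the median of 0.59. There miR-124-3p stood at -4.45 and miR-124-5p at -3.33.

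No difference between left and right was called for miR-124. In left against right eyes the log2 fold change of miR-124-3p was -0.44 (SE 0.26, 95% interval -1.04 to 0.157, edgeR adjusted p = 0.982) and that of miR-124-5p was 0.14 (SE 0.22, interval -0.374 to 0.660, edgeR adjusted p = 0.982). The 3p levels were 25802, 46598 and 32174 CPM in left eyes and 55552, 33138 and 53991 CPM in right eyes, so the sides overlapped. In left against right lungs it was 0.40 (SE 1.13, interval -2.21 to 3.02, edgeR adjusted p = 0.930), and this value turned to -0.95 without the left lung 2 and to -0.07 without the right lung 3. Without the right lung 1 it was 2.06. In left against right testicles it was 0.39 (SE 0.24, interval -0.178 to 0.963, edgeR adjusted p = 0.600). These intervals leave room for differences of about the size seen between libraries, so equal levels were not shown. MiR-124-5p was too low to enter the test within lungs or testicles. By edgeR no miRNA was called between sides of any organ, 0 of 487, 430 and 464 tested in eyes, lungs and testicles. At an unadjusted p under 0.05 the counts were 18, 1 and 36. A joint test of whether the side difference varied between organs gave an edgeR adjusted p of 1 for either arm.

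Within the eye, miR-124-3p varied more than any other miRNA of like abundance. Of the 24 miRNAs that averaged at least 10000 CPM in eyes, it had the largest coefficient of variation, 30.4%, with let-7f-5p next at 17.4%, let-7i-5p at 15.6% and a median of 11.8%. The highest eye was 2.15-fold above the lowest. The left eye 1, the left eye 3 and the right eye 2 lay at 0.626, 0.781 and 0.804 of the eye mean, while the left eye 2 and the right eyes 1 and 3 lay at 1.13, 1.35 and 1.31. With at least 71942 counts in each eye, counting error is far smaller than this spread.

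The 5p arm shared that pattern only in part. Both arms were below their means in the left eye 1 and the right eye 2. Both were above their means in the left eye 2 and the right eye 1. MiR-124-5p lay at 0.755, 1.18 and 1.20 of its eye mean in the left eyes and at 1.08, 0.843 and 0.932 in the right eyes, so that the left eye 3 was the highest library for 5p and below the mean for 3p, while the right eye 3 was above the mean for 3p and below it for 5p. The root mean square (RMS) distance between the centred log2 levels of the arms was 0.367 over the 6 eyes. The RMS distance of the 3p arm from its own mean was 0.415. MiR-124b-3p ran with the 5p arm more than with the 3p arm, at an RMS distance of 0.149 from 5p and 0.355 from 3p. It had between 30.2 and 41.6 counts for every 100 of miR-124-5p, whereas its counts per 100 of miR-124-3p ran from 0.0678 in the right eye 3 to 0.153 in the left eye 3.

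**Figure D2:**
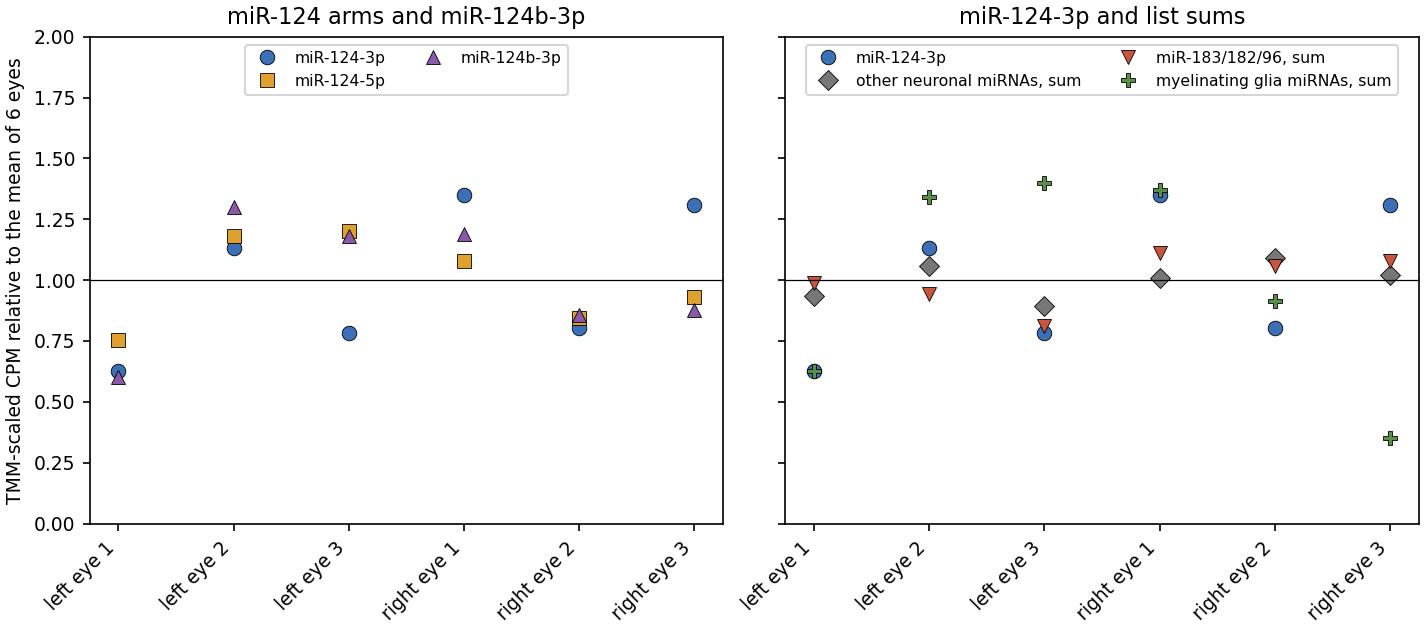
TMM-scaled CPM in each of the 6 eye libraries relative to the mean of the 6 eyes, for miR-124-3p, miR-124-5p and miR-124b-3p on the left and for miR-124-3p with the summed levels of 3 lists on the right. MiR-124-3p runs from 0.626 to 1.35 of its mean and the sum of the other neuronal miRNAs, which averages over 18 miRNAs, from 0.892 to 1.09.

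Single neuronal miRNAs also varied between eyes. Over the 18 others on the list the coefficient of variation ran from 8.23% to 47.3%, with a median of 15.1%, and 3 were at or above that of miR-124-3p, each at 55.2 CPM or less on average in eyes. MiR-384-5p, at 4398 CPM, had 21.3%. Sums over a list average out such variation and are given as a record of the tissue in each library, not as a measure of spread beside a single miRNA. The 18 neuronal miRNAs together lay between 89.2% and 109% of their eye mean, and the photoreceptor miRNAs between 81.3% and 111%. The pigment epithelium miRNAs miR-204-5p and miR-211-5p lay between 87.9% and 109%, and the lens and cornea miRNAs miR-184-3p and miR-205-5p between 83.9% and 108%. The 3 miRNAs of myelinating glia, which in the eye mark optic nerve tissue, lay at 62.5%, 134% and 140% in the left eyes and at 137%, 91.5% and 35.2% in the right eyes. They were above their mean in the left eyes 2 and 3 and the right eye 1. MiR-124-5p and miR-124b-3p were above theirs in the same 3 eyes. So were miR-130a-3p, miR-138-5p and miR-33-5p, which are not on the glial list. They were picked as being among the 5 closest to miR-124-5p over these same eyes. That choice favours miRNAs with the same split of eyes, so they say little about it. MiR-199a-5p, picked in the same way, was also above its mean in the right eye 3, at 1.07 of it. How many miRNAs share the split was not counted. The glial sum went with miR-124-3p in some eyes and not in others. Both were below their means in the left eye 1 and the right eye 2. Both were above them in the left eye 2 and the right eye 1. In the left eye 3 the glial sum was highest and miR-124-3p below its mean. In the right eye 3 the glial sum was lowest and miR-124-3p high. Striated muscle miRNAs, as from the muscles that move the eye, ran from 66.3% in the right eye 2 to 154% in the left eye 1. The part of these glial and muscle differences in the spread of either arm was not tested.

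None of the 5 miRNAs closest to miR-124-3p within the eyes was on the neuronal list. The 18 listed are few beside the 264 miRNAs compared, so this says little about them. Among 264 miRNAs of at least 50 CPM in eyes, miR-341-3p was nearest by RMS distance of centred log2 levels, at 0.160 over 6 libraries, followed by miR-19b-3p at 0.220, miR-140-3p at 0.260, miR-186-5p at 0.269 and miR-185-5p at 0.270. MiR-341-3p, from the imprinted miRNA cluster of chromosome 12, had 81.1, 168 and 113 CPM in left eyes and 241, 141 and 195 CPM in right eyes. For miR-124-5p the nearest were miR-138-5p, which is on the neuronal list, at 0.0807, miR-130a-3p at 0.0979 and miR-199a-5p at 0.105. These are orders of likeness over 6 libraries that share scaling and depth, and no p-value is attached.

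The share of the 5p arm in all miR-124 counts put the difference between the arms on a scale that needs no scaling between libraries. It was 0.321%, 0.279% and 0.411% in the left eyes and 0.214%, 0.279% and 0.190% in the right eyes. The exact Clopper-Pearson 95% interval of the left eye 3, 0.372% to 0.453%, lay above those of the other 5 eyes. That of the right eye 3, 0.167% to 0.215%, lay below those of the left eyes and the right eye 2. The share thus varied between eyes beyond counting error, from 242 to 526 counts of 3p for each count of 5p. Such intervals cover counting error only, since no molecular identifiers are described.

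In testicles the 5p share was 0.0517%, 0% and 0.179% on the left and 0.0553%, 0.158% and 0.254% on the right. Summed over libraries it was 0.273% in eyes (interval 0.260% to 0.286%) and 0.111% in testicles (0.0592% to 0.190%). The mean over libraries was 0.282% ± 0.0791 in eyes and 0.116% ± 0.0961 in testicles (SD, n = 6 each), a difference of 0.166 percentage points (two-sided exact permutation test, p = 0.0108, 0.0325 after Benjamini-Hochberg adjustment over 3 comparisons). The ranges overlapped, and the adjusted exact p rose to 0.0649 when any 1 of the 3 left eyes or the right eye 2 was left out. The testicle shares rest on 13 counts of 5p.

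In lungs only the left lung 2 gave a share above 0, 0.436% (interval 0.0528% to 1.57%). With 20 to 457 counts of 3p per lung, even the right lung 1, which has the most counts of 3p among lungs with 0 of 5p, allows a share of up to 1.59% (upper bound of the exact interval), above every eye. The exact test over libraries gave a difference of 0.210 percentage points in eyes against lungs (two-sided permutation p = 0.0260, adjusted 0.0390), but the 95% interval of each of the 6 lungs reaches above the highest eye share, 0.411%. Summed over lungs the share was 0.217% (0.0263% to 0.781%), an interval that holds the eye value. A difference in arm use between eyes and lungs was therefore not detectable at this depth. In lungs against testicles the difference of -0.0439 percentage points did not pass (exact permutation p = 0.621, adjusted 0.621).

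**Figure D3:**
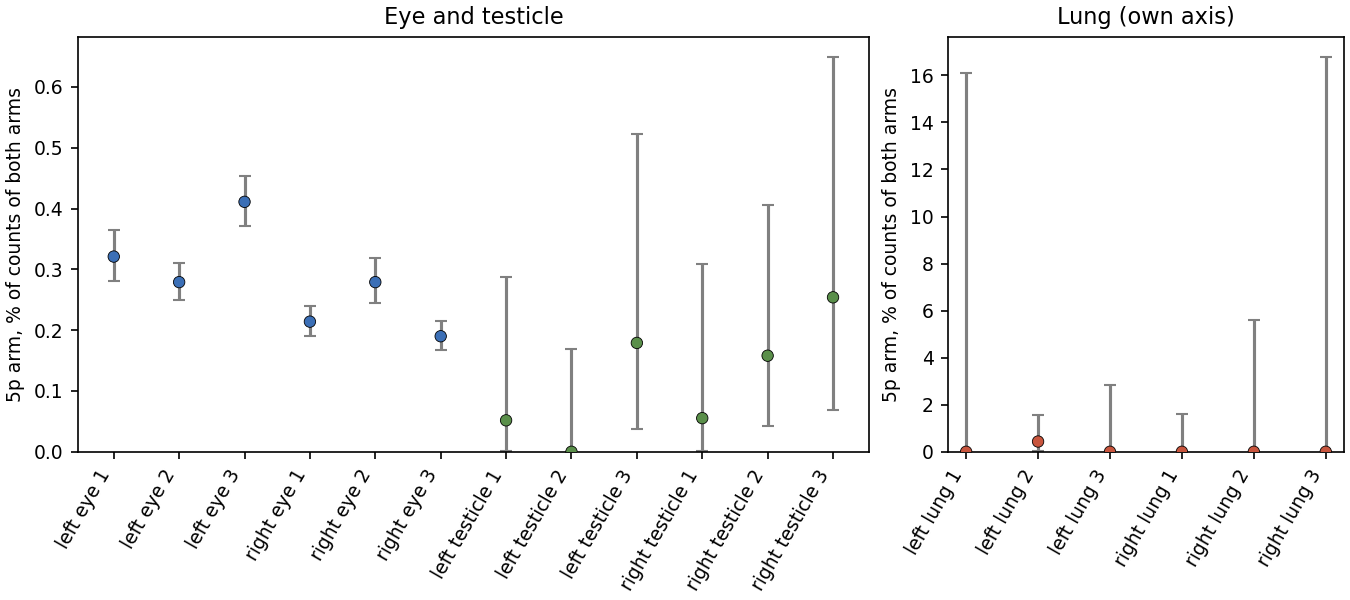
Share of miR-124-5p in the counts of both arms, in percent, for each eye and testicle library on the left and each lung library on a separate axis on the right, with exact 95% binomial intervals. Eye shares run from 0.190% to 0.411% with narrow intervals, testicle shares from 0% to 0.254%, and the lung intervals reach up to 16.8%.

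The lung traces of miR-124-3p were uneven. In CPM they were 7.62, 140 and 37.6 in the left lungs and 88.8, 23.0 and 6.13 in the right lungs, a 22.8-fold range with a coefficient of variation of 105%. The left lung 2 was highest and the right lung 1, the library that stands apart, next. Without the right lung 1 the range was again 22.8-fold and the coefficient of variation 130% over 5 lungs. The 95% counting intervals of the extremes were far apart, 416 to 501 counts in the left lung 2 and 12.2 to 30.9 in the right lung 3, so the range exceeds counting error. As a share of the eye mean the levels were 0.0185%, 0.339% and 0.0912% in the left lungs and 0.215%, 0.0559% and 0.0149% in the right lungs.

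Some miRNAs abundant in the eye were high in the same lungs and others were not. MiR-184-3p, a miRNA of lens and corneal epithelium, stood at 0.0171%, 0.219% and 0.0713% of its eye mean in the left lungs and at 0.393%, 0.0919% and 0.0486% in the right lungs. Of 399 other miRNAs of at least 5 CPM in lungs it was the closest to miR-124-3p, at an RMS distance of 0.761, followed by miR-127-3p at 1.02, miR-204-5p at 1.04 and miR-1947-5p and miR-485-5p at 1.06 each. Without the right lung 1, an alternative chosen after the data were seen, miR-184-3p was again closest, at 0.794, and miR-204-5p and miR-127-3p came 11th and 14th. MiR-204-5p, of the pigment epithelium, was highest in the right lung 1 at 2.67% of its eye mean and next in the left lung 2 at 1.01%, with the other 4 lungs between 0.273% and 0.359%. The 3 miRNAs were not in 1 fixed ratio: the left lung 2 was highest for miR-124-3p, and the right lung 1 for miR-184-3p and miR-204-5p. MiR-211-5p, also of the pigment epithelium, had the same highest lungs as miR-204-5p, the right lung 1 at 0.953% and the left lung 2 at 0.244%. The photoreceptor miRNAs did not go together. MiR-183-5p was highest in the right lung 1, at 6.82% of its eye mean, with the right lung 2 at 3.81% and the left lung 2 at 3.59%. MiR-182-5p was highest in the right lung 2, at 4.05% of its eye mean, with the right lung 1 at 1.79%, and miR-96-5p was highest in the left lung 1, at 3.48%. MiR-205-5p, of corneal epithelium, was highest in the left lung 2, at 4.31%, and lowest in the right lung 1, at 0.148%. Of 31 listed miRNAs of neurons, other eye tissues, glia and muscle, 6 had the left lung 2 and the right lung 1 as their highest 2 lungs. The left lung 2 was among the highest 2 for 19 of the 31, and the right lung 1 for 11. The share over all miRNAs in lungs was not counted, so whether 6 is many cannot be told.

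On average miR-124-3p stood in lungs at 0.122% of its eye mean and the neuronal miR-9-5p at 0.133%, but miR-9-5p varied far less. Its 6 lungs lay between 0.0838% and 0.197%, a 2.35-fold range, with the left lung 2 and the right lung 1 again the highest. MiR-9-3p was highest in the right lung 1, at 0.160%, and stood at 0.0706% in the left lung 2. MiR-384-5p, another neuronal miRNA, was highest in the left lung 2 at 0.132% and stood at 0.0439% in the right lung 1. At least 2 counts were behind each of its values. MiR-184-3p and miR-204-5p are not of the eye alone, and averaged 7215 and 15085.5 CPM in testicles. The testicle list summed to 105, 32.7 and 23.8 CPM in the left lungs and to 12.4, 51.1 and 114 CPM in the right lungs. The part of RNA from eye or testicle libraries in the lung traces of miR-124-3p was not tested.

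**Figure D4:**
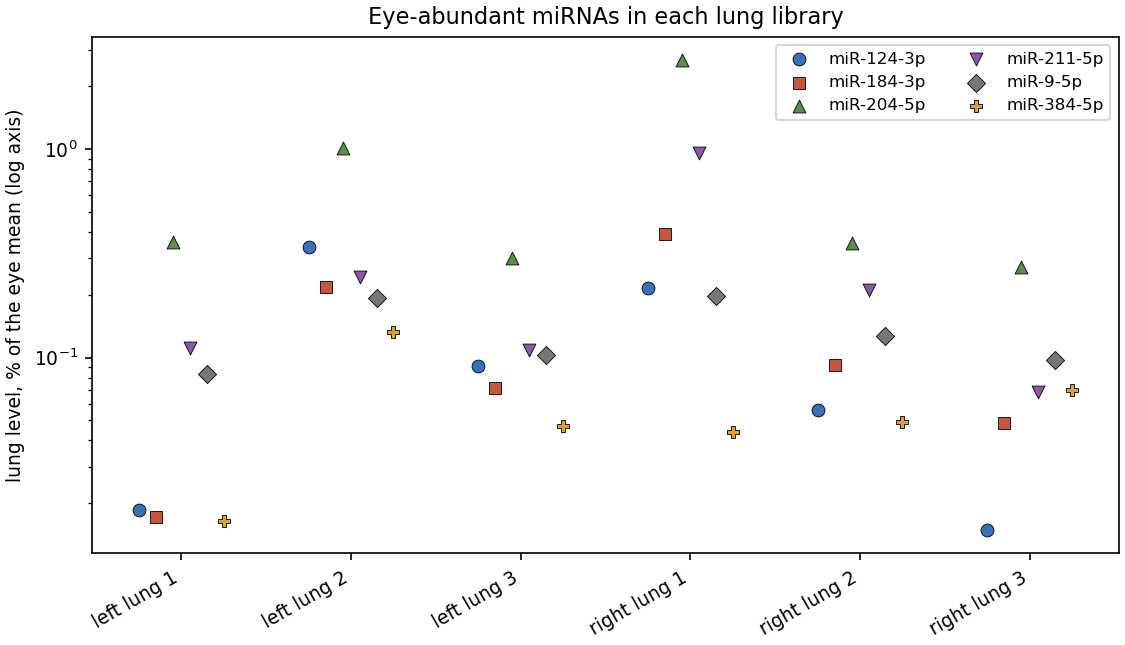
Level of 6 miRNAs in each lung library as a percentage of their mean in the 6 eyes, on a logarithmic y axis. MiR-124-3p runs from 0.0149% in the right lung 3 to 0.339% in the left lung 2, and miR-9-5p from 0.0838% to 0.197%.

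The testicle levels of miR-124-3p were even by comparison. In CPM they were 2076, 1358 and 1613 in the left testicles and 1626, 1606 and 1191 in the right testicles, with a coefficient of variation of 19.0%. They amounted to between 2.89% and 5.04% of the eye mean. MiR-9-5p stood at between 4.44% and 5.20% of its eye mean there, and miR-129-5p at between 10.1% and 13.5%.

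Over all 18 libraries the 5 miRNAs closest to miR-124-3p included both arms of miR-9, which acts in neural progenitors and retina. The measure is the RMS distance of log2(CPM + 1) after each miRNA's own mean was subtracted, over 642 miRNAs. It was 0.830 for miR-9-5p, 1.08 for miR-9-3p, 1.09 for miR-184-3p, 1.14 for miR-9b-3p and 1.15 for miR-129-5p. Their RefSeq mature sequences (GRCm38.p6) follow, with bases 2 to 8, the seed, in capitals, to show that their seeds differ.
miR-9-5p: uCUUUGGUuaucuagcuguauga
miR-9-3p: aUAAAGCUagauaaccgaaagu
miR-184-3p: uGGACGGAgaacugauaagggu
miR-9b-3p: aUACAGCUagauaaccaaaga
miR-129-5p: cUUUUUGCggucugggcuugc

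In that table miR-9-5p, miR-9-3p and miR-9b-3p each have 3 entries, miR-129-5p has 2, and miR-184-3p has 1, at chr9:89802263-89802284 on the minus strand. An entry of miR-9b-3p lies at chr3:88215613-88215633 on the minus strand, opposite an entry of miR-9-5p at chr3:88215613-88215635 on the plus strand. Its sequence is close to that of miR-9-3p, so counts of these miRNAs may have been split between them, and the 29648 CPM of miR-9b-3p in eyes, beside 4331 for miR-9-3p, are uncertain. MiR-9-5p averaged 8233 ± 1005 CPM in eyes, 10.99 ± 4.09 in lungs and 401 ± 24.98 in testicles (SD, n = 6 each), an order of organs like that of miR-124-3p. For miR-124-5p the closest were miR-487b-3p at 0.628, miR-7b-5p at 0.631, miR-182-3p at 0.779, miR-495-3p at 0.782 and miR-211-3p at 0.810, and none of these 5 was among those of the 3p arm. The arms themselves lay 2.19 apart over the 18 libraries. This measure adds 1 CPM, which compresses the low 5p values of lungs and testicles, and no other addition was tried.

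Other miRNAs known from neurons were mostly higher in the eye as well. Of 18 listed, all of which were tested, 17 were higher and 0 lower in eyes against lungs by edgeR's test with Benjamini-Hochberg adjustment, beside 35.4% and 24.5% of all tested miRNAs called higher and lower. Their median log2 fold change was 5.93, against 0.00 for all tested miRNAs. Some of the 18 passed the filter on low counts only through the eyes, so their calls are no separate support. Among them were miR-129-1-3p and miR-488-3p, with at most 2 counts in any lung or testicle. MiR-384-5p was higher by 10.66, miR-9-3p by 10.02, miR-384-3p by 9.91, miR-9-5p by 9.54 and miR-149-5p by 3.46. MiR-218-5p, which is known from motor neurons and also from endothelium and airway, was not called. It averaged 4206 ± 635 CPM in eyes and 4230 ± 863 CPM in lungs, and its log2 fold change of -0.01 had a 95% interval of -0.401 to 0.385. It was called lower in eyes when the left testicle 1 was the library that TMM scales to, and when the right eye 2 was left out.

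In eyes against testicles 16 of the 18 were higher and 2 lower, beside 40.2% and 39.1% of all tested, with a median of 4.05 against 0.05. The 2 that were lower in eyes were miR-128-3p, at 583 ± 51.8 CPM in eyes and 843 ± 64.4 in testicles, and miR-138-5p, at 893 ± 134 CPM in eyes and 1548 ± 192 in testicles. Neither was called with library totals alone or with the left lung 1 as the library that TMM scales to. In lungs against testicles 3 were higher, 10 lower and 5 not called, beside 27.4% and 49.1% of all tested, with a median of -1.58 against -0.90, and 5 or 6 were higher under RLE scaling and 3 further settings of scaling. MiR-124-3p had a larger fold change than all but 3 of the 18 in eyes against lungs, and than all but 7 in eyes against testicles. MiR-124-3p therefore stood near the top of the list in the first and in its middle in the second. Those 7 include miR-137-3p, miR-346-5p and miR-129-1-3p, with at most 4 counts in any testicle and 5 in any lung. These passed the filter only through the eyes, so their calls are no separate support. Their fold changes, and so the middle place of miR-124-3p, rest on few testicle counts. They are also part of the 16 and of the median of 4.05.

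**Figure D5:**
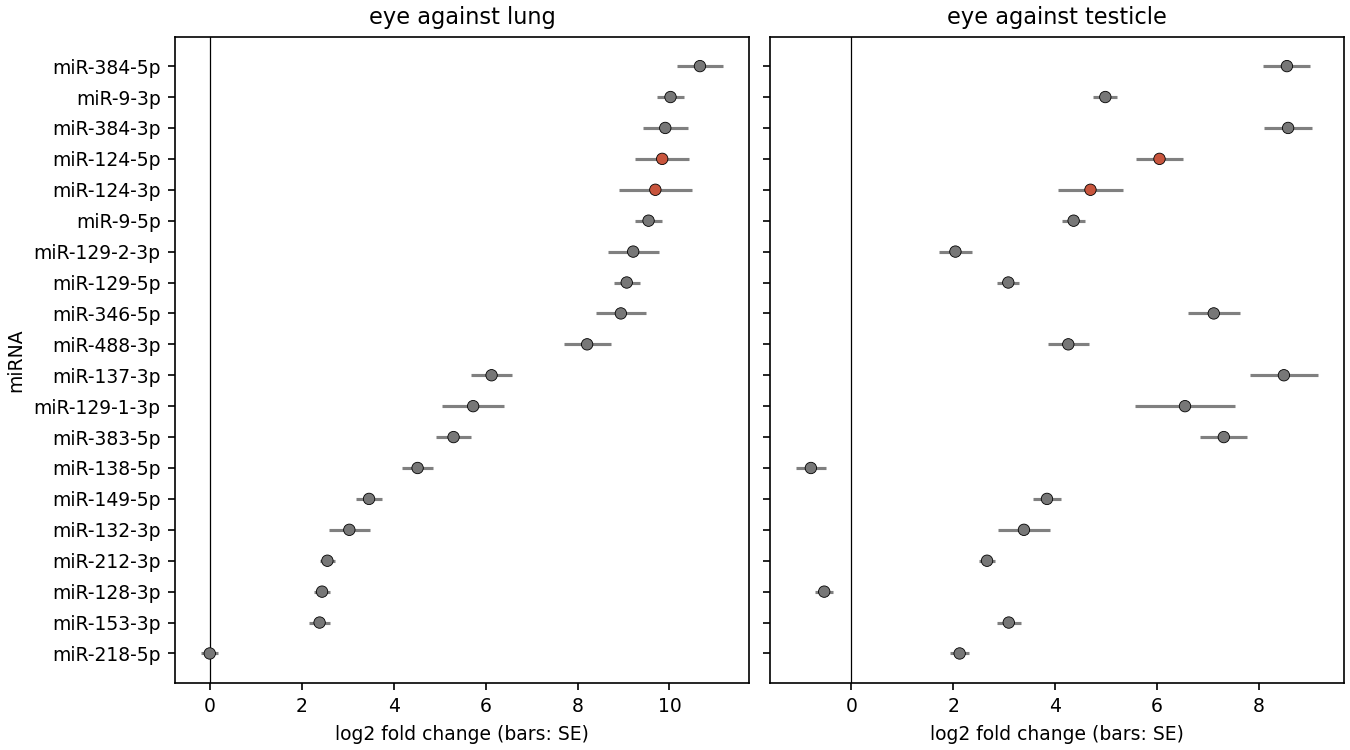
Log2 fold change of the 18 other neuronal miRNAs (grey) and both arms of miR-124 (red), in eyes against lungs on the left and in eyes against testicles on the right, with bars of 1 SE. MiR-124-3p stands at 9.69 and 4.69, below 3 and 7 of the other miRNAs.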

How the data were processed

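Per the labels' protocols, libraries were made from total RNA, purified on spin columns, by a BGI-500 procedure. The authors deposited 1 table of whole-number counts per library, per mature miRNA. The build GRCm38.p6 is named in the submitters' processing notes. No source used here states the aligner, the handling of multiply mapping reads or any molecular identifiers.

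From the counts, miRNAs with too few reads were removed (edgeR's filterByExpr, minimum count 10), which left 642 of 1431, and libraries were scaled by TMM. Organs were compared in 1 quasi-likelihood fit of the 6 groups, sides in a fit per organ (edgeR 4.0.16, R 4.3.3), with Benjamini-Hochberg adjustment and a threshold of 0.05. DESeq2 1.42.0 was an alternative. Arm shares were compared by exact permutation over libraries (6 against 6, 924 splits, smallest two-sided p 0.00216). The fit code was tested on simulated data. The members, marker lists, likeness measure and tests were chosen with earlier results of these data known.

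Named miRNAs followed fixed rules: both arms, the 6 neuronal miRNAs highest in eyes, those against their list's majority, the 5 nearest to each arm, and the 3 most variable of the abundant eye miRNAs. The rule on miRNAs with the same seed as miR-124 was not applied. RefSeq sequences were matched for 21 of the 24 nearest miRNAs.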

Additional observations from a re-analysis of the deposited data

Results flagged for a closer look

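In the lungs, 1 library stood apart from the other 5 for miR-124-5p: the left lung 2 had 0.611 TMM CPM, which is 2 counts, and the others had 0. The same library gave the highest share of the 5p arm among lungs, 0.436% of the counts of both arms, with 0% in the other 5. Both values come from the same 2 counts and from the lung with the most counts of miR-124-3p, 457. Chance alone picks out about 1 in 20 groups of continuous values by this measure, but that rate does not apply where 1 library alone is above 0, since its gap to the others is then the whole range at any count.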

How the results depend on the processing

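Every organ comparison of both arms kept its direction and its call under all alternatives that were run; miR-124-3p ranged from 9.09 to 10.19 in eyes against lungs, 4.39 to 5.18 in eyes against testicles and -5.72 to -4.40 in lungs against testicles. The last was -5.72 without the left lung 2 or the right lung 1 and -4.40 without the right eye 2. MiR-124-5p was too low to pass the filter in lungs against testicles with those 2 organs alone, so it was not tested there. Its values with left and right summed were 9.14, 5.90 and -3.24. With libraries left out in turn, left against right lungs ran from -0.946 to 2.06, with the reversed values -0.946 and -0.071.

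The arm share depends most on the setting. In eyes against lungs it was 0.173 percentage points in libraries of at least 50 counts (adjusted exact p = 0.143) and 0.145 with left and right summed (0.600), and on the scale log2((5p + 0.5)/(3p + 0.5)) it reversed to -1.48, where the added 0.5 sets the lung values. Leaving out libraries gave 0.184 to 0.282 (adjusted exact p 0.0130 to 0.0714). In eyes against testicles it was 0.154 summed, where an exact test of 3 against 3 cannot go below p = 0.1, and 0.140 to 0.194 with libraries left out. In lungs against testicles it reversed to 0.106 with counts pooled, 2.83 on the log2 scale (adjusted exact p = 0.0130) and 0.00948 summed, and ran from -0.116 to -0.0163 with libraries left out, the first without the left lung 2 (adjusted exact p = 0.0260).

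Among the neuronal miRNAs, 1 was lower in eyes against lungs with the left testicle 1 as TMM library (0 to 1 with libraries left out). In eyes against testicles 0 were lower with library totals alone or the left lung 1 as TMM library and 1 without a filter (1 to 2 with libraries left out). In lungs against testicles 5 were higher under RLE scaling, with only these 2 organs or with sides summed, and 6 with totals alone or either other TMM library (3 to 6 with libraries left out). The causes were not tested.

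The labels do not say whether the replicate numbers pair the sides, and they were treated as unpaired. The correlation of same-numbered left and right libraries ran from -0.42 to 0.396, with 4 of 9 over 0.1. It was not set against differently numbered libraries, so it does not settle the pairing. With the number as a block miR-124-3p had 9.82, 4.72 and -5.10 and miR-124-5p had 9.87, 6.08 and -3.79 in the 3 organ comparisons. In left against right lungs miR-124-3p was 1.04 under the block (edgeR adjusted p = 0.830). The block changed no call, including those of the arm share (adjusted exact p = 0.0417, 0.0417 and 0.639). Depth limits miR-124-5p outside the eye.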
